A study of Mus musculus with 6 samples.

Results

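The intracellular and PAF-type phospholipases A2 are the enzymes of this family that work inside the cell, together with Pla2g7, which breaks down the lipid mediator PAF (platelet-activating factor). A list of 10 genes was taken, namely Pla2g4a, Pla2g4b, Pla2g4e, Pla2g4f, Pla2g6, Pla2g7, Pla2g15, Plaat3, Pnpla2 and Pnpla6. A gene was measured where a feature of the array (a transcript cluster, read by a set of probes) was annotated with that gene symbol alone, and the brightest such feature by the mean of all arrays stood for the gene. This gave 9 of the 10 genes, out of 22180 genes measured in this way. Pla2g4b was the exception, since its 2 features also carry the symbol of its neighbour Jmjd7.

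RNA came from cells sorted as hair follicle stem cells, which are long-lived and sit in the bulge of the follicle. The cells were sorted on CD34 and α6-integrin from the skin of mice aged 49 days. The wild-type (WT) mice gave 3 arrays, and the K14-sPLA2-IIA transgenic (TG) mice gave 3 arrays, all GeneChip Mouse Gene 2.0 ST. By its name the transgene places secreted phospholipase A2 group IIA under K14 (keratin) control, and K14 promoters act in the basal epidermis and the outer root sheath and not in the bulge alone. Strain, sex, number of mice per array and transgene copies were not stated, so each p-value reflects the spread between these arrays alone, which may be technical. Values are the deposited log2 values, on which a difference of 1 is a doubling, given in the order of the array numbers 1, 2 and 3 in each genotype. No value was called present or absent. The log base was read from the range of the values, and the folds given below hold only if it is 2.

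Phospholipases A2 cut a fatty acid from the middle carbon of a membrane phospholipid and leave a lysophospholipid. The cytosolic group IV enzymes (Pla2g4 genes) mostly depend on calcium, and Pla2g4a prefers arachidonic acid, from which prostaglandins and leukotrienes are made. Pla2g6 and the patatin-like Pnpla genes need no calcium, Pla2g15 works in the lysosome, and Plaat3 acts as a phospholipase and acyltransferase that is abundant in fat cells. In skin, fatty acid release by such enzymes feeds eicosanoid signalling in basal cells and the lipid barrier in the upper layers.

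The sequences upstream of the start are shown for the genes that varied most between arrays (Pla2g4f, Pla2g4e, Pla2g7) and for Pla2g4a and Plaat3, which are described beside them. Each is the 250 bases before the start, 5′ to 3′ on the gene's strand, from RefSeq promoters of build GRCm38.p6, where 9 of the 9 measured genes matched by symbol. The table lists 2 starts for Pla2g4a, 2 for Plaat3 and 3 for Pnpla6, and the one farthest upstream was used for each gene. Capitals mark any match on either strand to TGANTCA for AP-1, CACGTG for an E-box, GGGCGG for a GC box, TATAAA for a TATA box, or CCAAT, and 2 matches may overlap. A match is only a match of letters. The windows lie at chr1:149961291-149961540 on the minus strand for Pla2g4a, chr2:120245336-120245585 on the minus strand for Pla2g4e and chr2:120314166-120314415 on the minus strand for Pla2g4f. They lie at chr17:43568201-43568450 on the plus strand for Pla2g7 and chr19:7557209-7557458 on the plus strand for Plaat3.
Pla2g4a: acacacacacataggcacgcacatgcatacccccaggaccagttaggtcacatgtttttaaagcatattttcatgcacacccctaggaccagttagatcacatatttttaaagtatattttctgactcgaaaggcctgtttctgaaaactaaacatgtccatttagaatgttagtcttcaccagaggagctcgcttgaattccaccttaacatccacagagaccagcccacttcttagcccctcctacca
Pla2g4e: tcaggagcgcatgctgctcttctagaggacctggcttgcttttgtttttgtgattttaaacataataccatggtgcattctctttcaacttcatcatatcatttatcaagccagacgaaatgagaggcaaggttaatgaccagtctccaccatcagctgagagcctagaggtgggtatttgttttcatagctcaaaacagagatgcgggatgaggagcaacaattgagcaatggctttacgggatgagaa
Pla2g4f: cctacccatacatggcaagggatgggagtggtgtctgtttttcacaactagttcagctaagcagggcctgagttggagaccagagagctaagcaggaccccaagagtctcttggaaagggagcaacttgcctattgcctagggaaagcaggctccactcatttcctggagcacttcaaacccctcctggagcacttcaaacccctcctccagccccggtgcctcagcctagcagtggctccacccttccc
Pla2g7: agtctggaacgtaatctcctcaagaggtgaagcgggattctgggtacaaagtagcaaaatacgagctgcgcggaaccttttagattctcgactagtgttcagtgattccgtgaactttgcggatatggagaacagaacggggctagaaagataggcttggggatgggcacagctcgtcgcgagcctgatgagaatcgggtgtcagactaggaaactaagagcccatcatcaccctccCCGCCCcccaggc
Plaat3: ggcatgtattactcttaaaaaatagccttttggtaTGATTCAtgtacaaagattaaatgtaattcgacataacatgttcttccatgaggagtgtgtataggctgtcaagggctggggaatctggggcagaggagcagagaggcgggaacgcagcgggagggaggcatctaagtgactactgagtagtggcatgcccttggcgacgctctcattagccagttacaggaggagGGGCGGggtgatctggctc

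The 3 group IV windows held none of the 5 motifs, and 1 to 4 CpG dinucleotides each. All 6 other genes had at least 1 GC box and 7 to 16 CpG dinucleotides, against a median of 6 over the 27025 promoters in the table. GC boxes stand in 33.0% of those promoters, CCAAT in 34.5%, TATA boxes in 13.0%, AP-1 letters in 6.85% and E-boxes in 6.04%. The Plaat3 window was the only one of the 9 with AP-1 letters, beginning 215 bases before the start, and its GC box begins 19 bases before it. The single GC box of Pla2g7 begins 13 bases before the start.

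Arrays with the number 3 stood apart in both genotypes. On the first principal component, which held 64.6% of the variance, they scored 50.2 (WT) and 53.3 (TG). TG array 1 lay in between at -2.78, and WT arrays 1 and 2 and TG array 2 scored -34.3 to -32.7. Markers of follicle stem cells and basal keratinocytes (9 of 10 measured) had a mean of 10.55, 10.61 and 11.63 in WT. In TG that mean was 11.41, 10.57 and 11.44, so TG array 1 read near the arrays numbered 3. The sort marker Cd34 read 13.07 on WT array 3 and 12.42 on TG array 3, while the other arrays read between 9.65 and 11.57. Itga6, encoding α6-integrin, read 10.01 to 10.49, and the basal keratin genes Krt14 and Krt15 read 13.80 to 14.24 and 13.21 to 13.50. Markers of suprabasal and cornified keratinocytes (12 of 12 measured) had a mean of 10.23 to 12.13 in WT and 9.88 to 12.02 in TG. All 12 were lower on array 3 than the mean of arrays 1 and 2 in both genotypes. Markers of cells other than stem cells thus read high in the sort, and its purity was not tested. Fibroblast markers (7 of 7 measured) had a mean of 5.91 to 6.08 in WT and 6.33 to 6.50 in TG, with all 7 differences above 0 and 0 past the adjusted threshold, and their part in the results below was not tested. Pla2g2a, the mouse gene of the transgene's enzyme, read 6.77, 5.75 and 5.90 in WT and 12.61, 12.57 and 12.39 in TG (adjusted p = 0.00255 in limma). Its call was lost without TG array 1 (adjusted p = 0.065) and without both arrays numbered 3 (adjusted p = 0.173), with the difference at 6.34 and 6.33.

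None of the 9 phospholipase genes passed the test between genotypes. With limma and adjustment over all 22180 genes, 0 of 9 had an adjusted p under 0.05, and each adjusted p was 0.99996. At an unadjusted p under 0.05 there were also 0 of 9 in limma. Over all genes tested the shares were 0.00451% (1 gene, Pla2g2a) and 2.77%. In 0 of 9 did the TG arrays lie wholly above or below the WT arrays, a separation seen in 7.20% of all genes. Of the 9 genes, 4 had a TG minus WT difference above 0 and 5 below 0, with a median of -0.09, against -0.0075 over all genes. The median was 0.088 without both arrays numbered 3, and the 9 differences ran from -0.56 to 0.96 on all arrays.

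**Figure D1:**
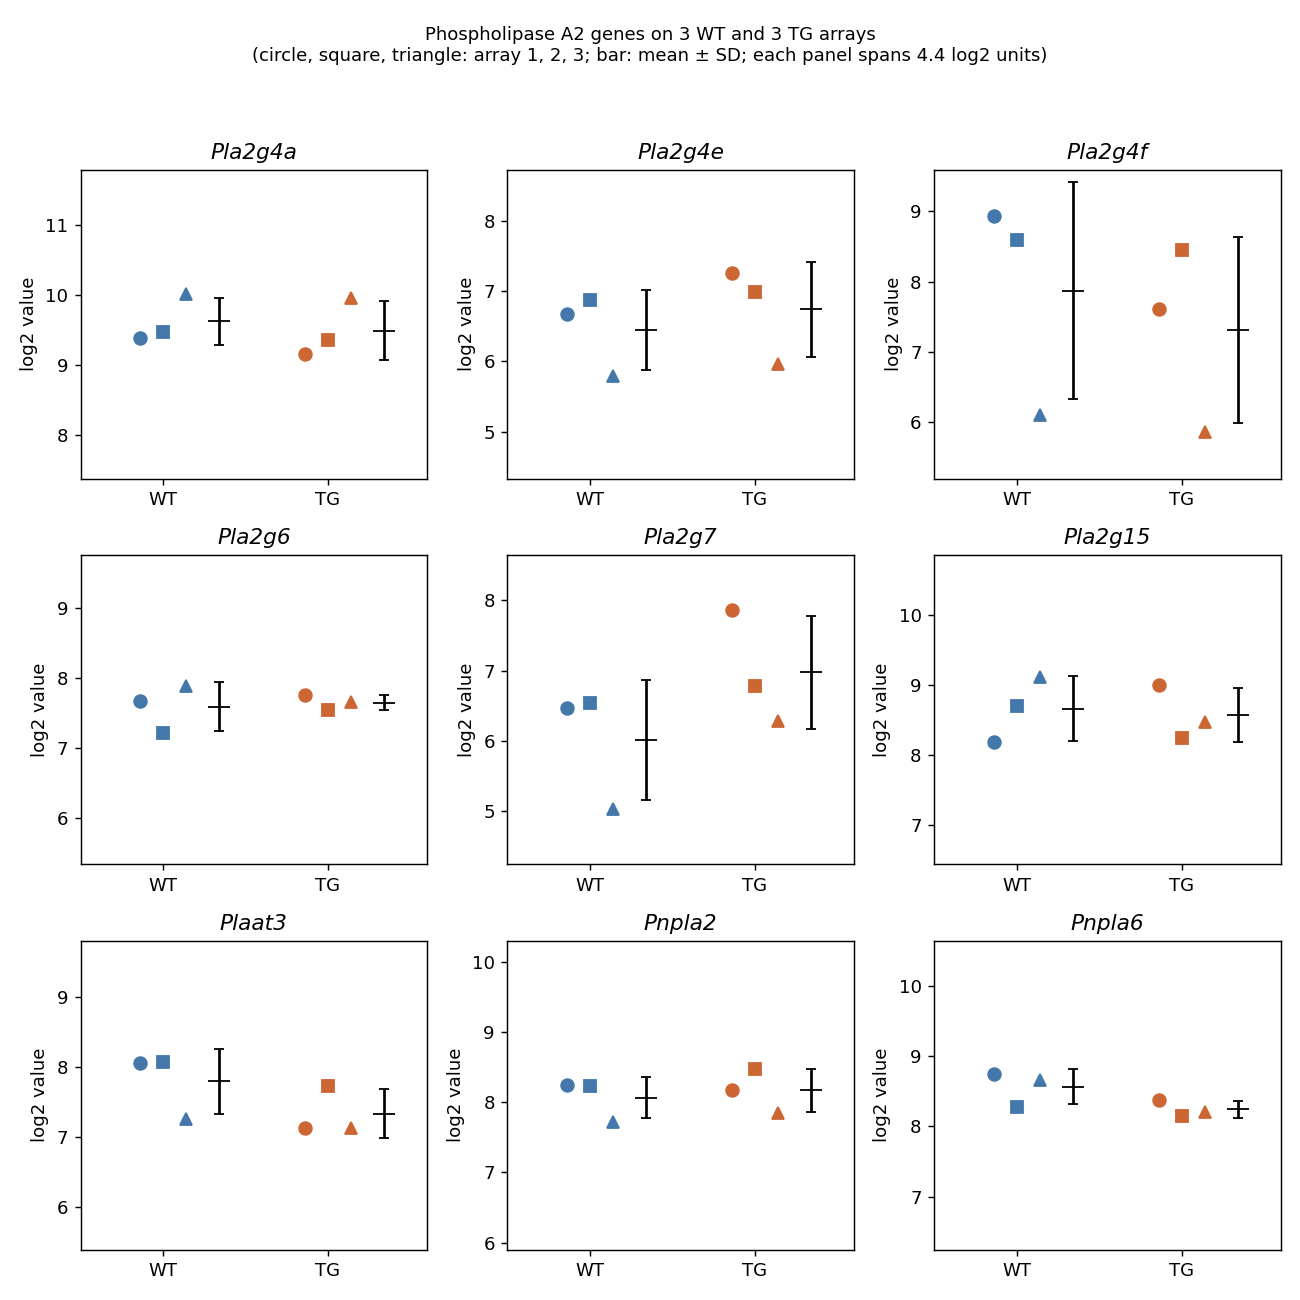
Deposited log2 value (y axis) of each of the 9 phospholipase A2 genes on the WT and TG arrays (x axis), with symbols for array 1, 2 and 3 and a bar for the mean ± SD of 3 arrays. Every panel spans 4.4 log2 units. The triangles (array 3) lie lowest in both genotypes for Pla2g4e, Pla2g4f, Pla2g7 and Pnpla2 and highest in both for Pla2g4a.

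Deviations from the genotype means correlated between same-numbered arrays at 0.20, 0.67 and 0.74. WT array 1, however, correlated more with TG array 2 (0.50), so the pairing of arrays 1 and 2 is uncertain. With this limit, the replicate number was also fitted as a block, which compares each TG array with the WT array of its number. The adjusted calls were again 0 of 9. At an unadjusted p under 0.05 there were 3 of 9 with the block, where the share over all genes was 8.45%. They were Pla2g7 (0.96 ± 0.24 SE, adjusted p = 0.538 in limma with the block), Plaat3 (-0.46 ± 0.18 SE, adjusted p = 0.581) and Pnpla6 (-0.32 ± 0.12 SE, adjusted p = 0.569). In 6 of 9 genes all 3 same-numbered pairs pointed the same way, 2 with TG higher and 4 with TG lower, against 31.2% of all genes. These genes were Pla2g4e and Pla2g7 on the higher side and Pla2g4a, Pla2g4f, Plaat3 and Pnpla6 on the lower side.

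**Figure D2:**
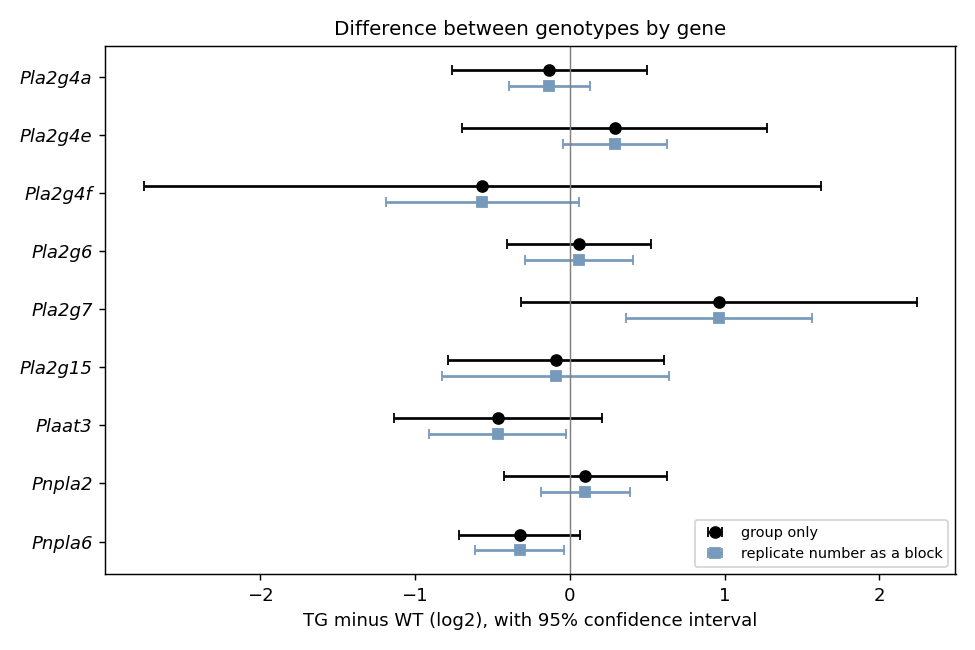
TG minus WT difference in log2 units (x axis) of each gene (y axis), with 95% confidence intervals from limma, for the fit on genotype alone (black circles) and with the replicate number as a block (blue squares), from 3 WT and 3 TG arrays. All 9 black intervals include 0, and with the block those of Pla2g7, Plaat3 and Pnpla6 lie to one side of it, before any adjustment for the number of genes.

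Pla2g7, which encodes the plasma-type PAF acetylhydrolase secreted by macrophages and other cells, had the largest difference of the 9. It read 6.47, 6.53 and 5.03 in WT and 7.86, 6.78 and 6.28 in TG. TG array 1 was the highest and WT array 3 the lowest, and the genotypes overlapped because TG array 3 read below WT arrays 1 and 2. The mean was 6.01 ± 0.85 in WT and 6.97 ± 0.81 in TG (SD, n = 3), a difference of 0.96 ± 0.54 (SE) or 1.95-fold, with a 95% interval from -0.31 to 2.24 (adjusted p = 0.99996 in limma). By exact permutation of the arrays (two-sided) p was 0.3, and 3 against 3 arrays can give no p below 0.1. TG was higher by 1.39, 0.25 and 1.25 in the pairs numbered 1, 2 and 3.

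Pla2g7 also shifted between arrays of 1 genotype. Array 3 read below the mean of arrays 1 and 2 by 1.48 in WT and 1.04 in TG on the log2 scale. The genotype difference was 0.47 with WT array 3 left out, 0.52 with TG array 1 left out and 0.82 with both arrays numbered 3 left out. Markers of macrophages and Langerhans cells (10 of 11 measured) had a mean of 6.60 to 7.12 in WT and 6.31 to 7.29 in TG, and 2 of the 10 had a difference above 0. On TG array 1, where Pla2g7 was highest, that mean was 6.67, below both WT array 1 (7.08) and TG array 2 (7.29). The part of macrophages in the Pla2g7 values was not tested.

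Pla2g4f, which encodes the cytosolic phospholipase A2 zeta, varied most of the 9 genes, over a range of 3.08 log2 units. It read 8.93, 8.59 and 6.10 in WT and 7.62, 8.46 and 5.86 in TG. Array 3 was the lowest in each genotype, TG array 1 lay in between, and the genotypes overlapped. Array 3 read 6.35-fold below the mean of the other arrays in WT and 4.53-fold below it in TG. Between genotypes the difference was -0.56 ± 0.92 (SE), with a 95% interval from -2.75 to 1.62 (adjusted p = 0.99996 in limma), so a change of several-fold either way could not have been resolved. It turned to 0.16 without TG array 3 and was -1.45 without WT array 3.

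The suprabasal marker mean was lowest on the same 3 arrays as Pla2g4f. It read 11.94, 12.13 and 10.23 in WT and 11.04, 12.02 and 9.88 in TG, with array 3 lowest in each genotype and TG array 1 in between. In RNA of a whole sorted sample, fewer cells of a type and less RNA per cell cannot be told apart, and the part of suprabasal cells in the Pla2g4f values was not tested. The T-cell, sebocyte and macrophage marker means were lowest on the same 3 arrays. Array 3 read below the mean of arrays 1 and 2 in both genotypes for 6 of 6 T-cell, 5 of 9 sebocyte and 6 of 10 macrophage markers. For the T-cell markers (6 of 8 measured) the mean was 8.88, 9.31 and 7.67 in WT and 8.11, 9.56 and 7.44 in TG, so the match was not particular to suprabasal markers. Among the 4119 genes with a range of at least 1 log2 unit, Jarid2, St8sia6 and Csnk2a2 had the pattern most like Pla2g4f over the 6 arrays (Pearson r = 0.999, 0.998 and 0.998). As many as 575 genes exceeded r = 0.95 with it, so many genes shared this order of arrays.

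Pla2g4e, whose product transfers acyl groups to make precursors of the fatty acid ethanolamides, lies in the same gene cluster as Pla2g4d and Pla2g4f on chromosome 2. It read 6.68, 6.87 and 5.80 in WT and 7.26, 6.98 and 5.97 in TG. Array 3 was again lowest in each genotype, by 0.98 in WT and 1.16 in TG below the mean of the others, and TG array 1 was here the highest. The difference between genotypes was 0.29 ± 0.41 (SE), with a 95% interval from -0.69 to 1.27 (adjusted p = 0.99996 in limma), and it was -0.035 without WT array 3. The genes most like it over the 6 arrays were Bcl2a1c, Pagr1a and Stom (Pearson r = 0.999, 0.992 and 0.986), and 76 genes exceeded r = 0.95. For Pla2g7 these were Akr1b8, Snu13 and Pitpnm3 (Pearson r = 0.997, 0.987 and 0.987), with 22 genes above r = 0.95.

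The neighbour Pla2g4d, a further group IV gene chosen here after its values were seen, lies between Pla2g4e and Pla2g4f in the RefSeq gene order. It read 4.96, 4.72 and 5.15 in WT and 4.73, 4.83 and 5.11 in TG. Unlike both of them it was not lowest on array 3, which gave its highest value in each genotype. All its values lay below the median of all features on each array (5.9 to 5.99), over a range of only 0.43. At that level the order of arrays may not reflect its expression. Pla2g4b stands further along in the same cluster, beside Jmjd7, and its shared features cannot assign signal to either gene. These features read 8.68, 8.69 and 8.71 in WT and 8.86, 8.22 and 8.50 in TG for one, and 6.47, 6.28 and 6.85 in WT and 6.37, 6.30 and 6.48 in TG for the other. The means differed by -0.17 and -0.15 between genotypes, with overlapping arrays, and neither feature entered the test.

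Pla2g4a, which encodes the main arachidonate-releasing enzyme cPLA2-alpha, went the other way across arrays. It read 9.39, 9.47 and 10.01 in WT and 9.16, 9.36 and 9.96 in TG. Array 3 was highest in each genotype, by 0.58 in WT and 0.70 in TG above the mean of the others. Each TG array read below the WT array of its number, by 0.23, 0.12 and 0.05. The SD within a genotype was 0.34 in WT and 0.42 in TG. The difference was -0.13 ± 0.26 (SE), with a 95% interval from -0.76 to 0.50 (adjusted p = 0.99996 in limma). It turned to 0.034 without TG array 1 and to 0.061 without WT array 3.

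**Figure D3:**
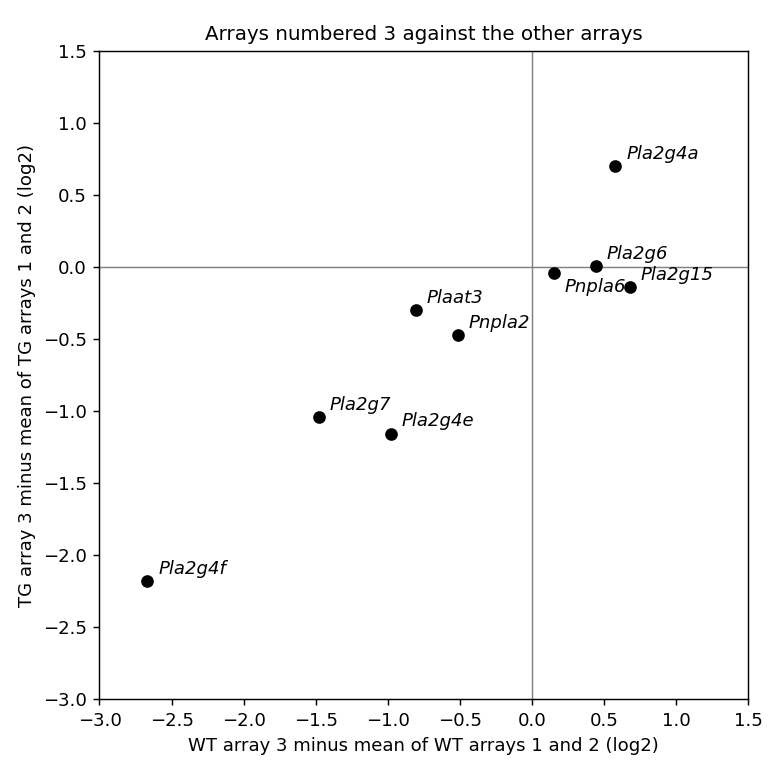
For each gene, array 3 minus the mean of arrays 1 and 2 in log2 units, in WT (x axis) and in TG (y axis), 1 point per gene. Pla2g4f lies farthest from 0 at -2.67 and -2.18, followed by Pla2g7 at -1.48 and -1.04 and Pla2g4e at -0.98 and -1.16, and Pla2g4a is above 0 in both.

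Across the 9 genes, array 3 lay below the mean of arrays 1 and 2 in both genotypes for 5 genes and above that mean in both for 2. With a limit of 0.5 log2 units in both genotypes, set after the values were seen, 4 of 9 genes were counted: Pla2g4e, Pla2g4f and Pla2g7 as lower and Pla2g4a as higher. The same limit was met by 14.9% of all genes. The median range over the 6 arrays was 0.93 for the 9 genes and 0.59 for all genes. No test was made of this count, since the arrays numbered 3 were singled out from the data.

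**Figure D4:**
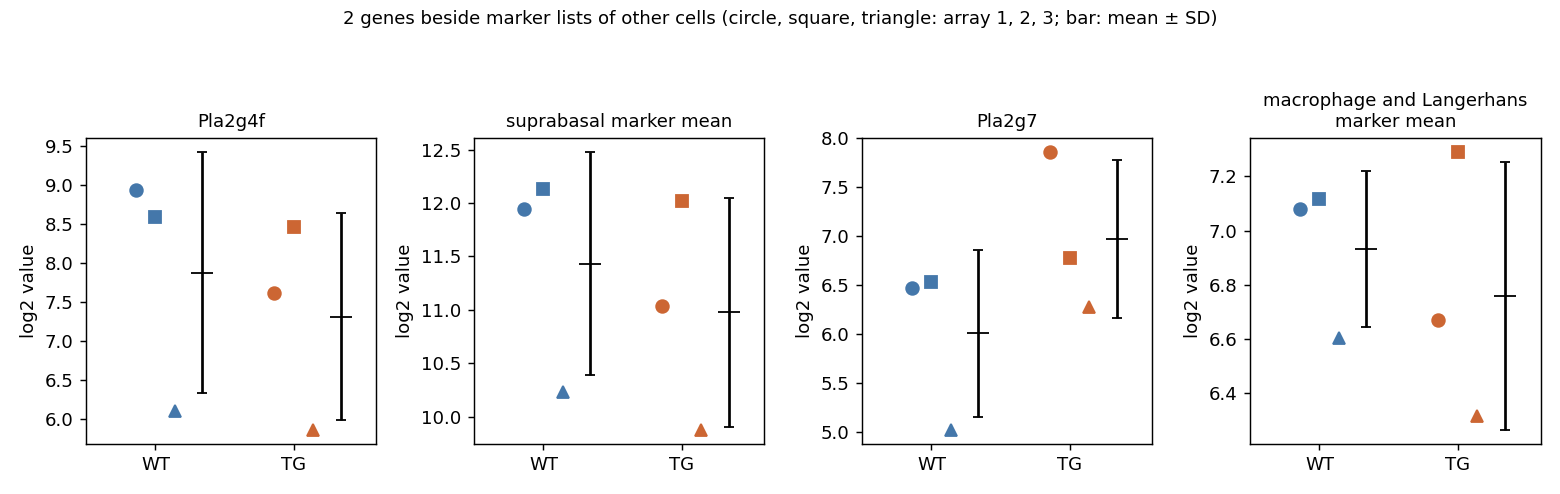
Log2 value (y axis) of Pla2g4f and Pla2g7, and the mean log2 value of the suprabasal and of the macrophage and Langerhans marker lists, on the WT and TG arrays (x axis), with symbols for array 1, 2 and 3 and a bar for the mean ± SD of 3 arrays. The y axes differ between panels. Pla2g4f and the suprabasal mean are both lowest on array 3 (6.10 and 10.23 in WT), while TG array 1 has the highest Pla2g7 value (7.86) and a macrophage mean of 6.67.

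Plaat3 read 8.06, 8.07 and 7.26 in WT and 7.13, 7.74 and 7.13 in TG. WT arrays 1 and 2 were the highest, and the genotypes overlapped because WT array 3 read below TG array 2. The mean was 7.80 ± 0.47 in WT and 7.33 ± 0.35 in TG (SD, n = 3), a difference of -0.46 ± 0.28 (SE), or 1.38-fold lower in TG, with a 95% interval from -1.14 to 0.21 (adjusted p = 0.99996 in limma). By exact two-sided permutation p was 0.2. The pairs numbered 1, 2 and 3 differed by -0.93, -0.33 and -0.12.

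The Plaat3 difference stayed below 0 whichever single array was left out, from -0.73 without WT array 3 to -0.33 without WT array 2. Without both arrays numbered 3 it was -0.63 ± 0.22 (SE, adjusted p = 0.783 in limma). Sebocyte markers (9 of 10 measured) had a mean of 8.20, 8.09 and 6.53 in WT and 7.82, 8.13 and 7.02 in TG, with array 3 lowest in each genotype. Of the 9 markers, 5 were lower on array 3 than the mean of arrays 1 and 2 in both genotypes. Plaat3 on TG array 1 was as low as on TG array 3, whereas the sebocyte mean was 7.82 on the first and 7.02 on the second. The part of sebocytes in the Plaat3 values was not tested.

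Pnpla2 encodes adipose triglyceride lipase, which starts the breakdown of stored fat. It read 8.24, 8.23 and 7.72 in WT and 8.18, 8.47 and 7.85 in TG, with array 3 lowest in each genotype. The difference was 0.10 ± 0.22 (SE), and its 95% interval ran from -0.43 to 0.63 (adjusted p = 0.99996 in limma). The sign turned without TG array 2 (-0.052) and without WT array 3 (-0.07).

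Pnpla6 encodes neuropathy target esterase, which deacylates phosphatidylcholine and its lyso form at the endoplasmic reticulum. It read 8.75, 8.28 and 8.67 in WT and 8.37, 8.14 and 8.21 in TG. Only TG array 1 read above the lowest WT array, and array 3 did not stand apart. The mean was 8.57 ± 0.25 in WT and 8.24 ± 0.12 in TG (SD, n = 3), a difference of -0.32 ± 0.17 (SE) or 1.25-fold lower in TG, with a 95% interval from -0.72 to 0.070 (adjusted p = 0.99996 in limma). By exact two-sided permutation p was 0.2, and the pairs differed by -0.38, -0.14 and -0.46. The difference stayed below 0 whichever array was left out, between -0.47 and -0.23.

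Pla2g6 encodes the calcium-independent phospholipase A2 beta, an enzyme of membrane remodelling. It read 7.67, 7.21 and 7.88 in WT and 7.75, 7.54 and 7.65 in TG. All TG arrays lay within the WT range, and the SD was 0.35 in WT and 0.11 in TG. The difference was 0.060 ± 0.20 (SE), with a 95% interval from -0.41 to 0.53 (adjusted p = 0.99996 in limma). The ends of this interval stand for 1.33-fold lower and 1.44-fold higher in TG. The difference was -0.13 without WT array 2.

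Pla2g15, the lysosomal phospholipase A2, has 2 features annotated with its symbol alone. The brighter one read 8.18, 8.69 and 9.12 in WT and 9.00, 8.24 and 8.48 in TG, with no order shared between the genotypes. Its pairs differed in opposite directions, by 0.82, -0.45 and -0.64. The difference was -0.090 ± 0.29 (SE), with a 95% interval from -0.79 to 0.61 (adjusted p = 0.99996 in limma). The sign turned when WT array 3 (0.14), TG array 2 (0.075) or both arrays numbered 3 (0.18) were left out. The second feature read 6.59, 6.42 and 6.58 in WT and 6.47, 6.24 and 6.73 in TG, a difference of -0.049, and did not follow the first across arrays.

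**Figure D5:**
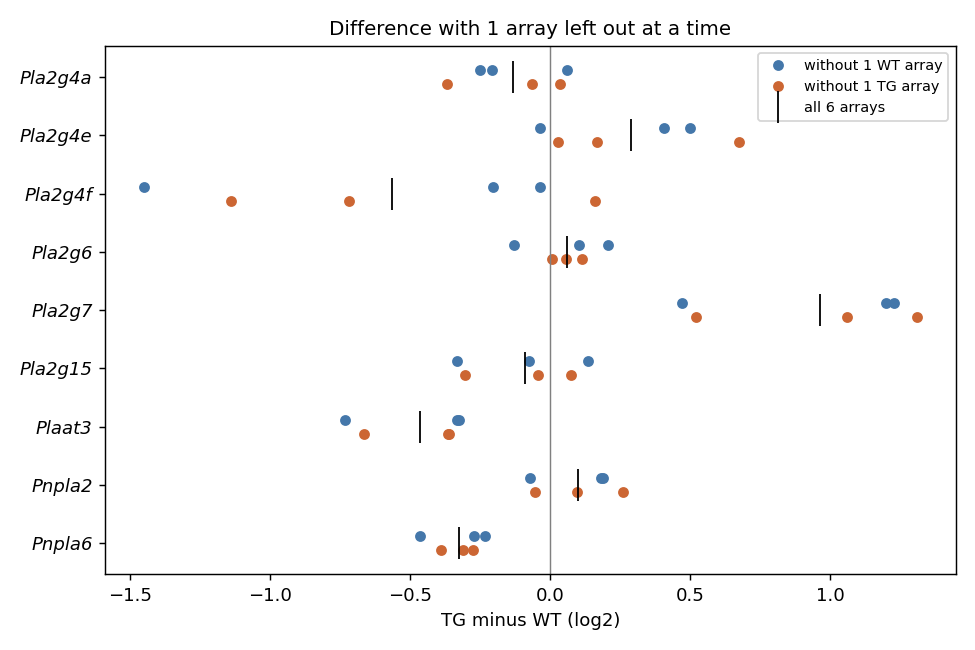
TG minus WT difference in log2 units (x axis) of each gene (y axis) with all 6 arrays (black line) and with 1 WT array (blue) or 1 TG array (orange) left out at a time. The points of Pla2g7 (0.47 to 1.31), Plaat3 (-0.73 to -0.33) and Pnpla6 (-0.47 to -0.23) stay on 1 side of 0, and those of the other 6 genes fall on both sides.

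Genes around these enzymes were read in 7 lists of related genes, of which 111 of 121 genes were measured. By limma 1 of the 111 passed as higher in TG (Pla2g2a) and 0 as lower, and with the block again 1 passed. At an unadjusted p under 0.05 there was 1 of 111, against 2.77% of all genes, and 16 of 111 with the block, against 8.45% of all genes. The differences had a median of -0.022 over the 111 genes, against -0.0075 over all genes. In 5 of 111 the genotypes did not overlap, against 7.20% of all genes, so the separations given below are no more frequent than elsewhere. The examples below had the smallest unadjusted p of their list in a direction. Apart from Pla2g2a, their adjusted p was 0.99996 in limma.

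In the list of related phospholipases, lysophospholipases and PAF acetylhydrolases, 26 genes were measured and 0 passed in either direction, with a median difference of -0.051 and 18 of 26 below 0. Lypla2, a lysophospholipase and depalmitoylating enzyme, differed by 0.15 ± 0.14 (SE), and the patatin-like Pnpla5 by -0.22 ± 0.14. Of the 12 secreted phospholipase A2 genes, 1 passed as higher (Pla2g2a) and 0 as lower, and the median was 0.0045. The epidermal enzyme gene Pla2g2f differed by -0.58 ± 0.56 (SE) and was low on array 3 (10.03 in WT and 9.57 in TG, against 10.44 to 11.55 elsewhere).

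Of 16 genes of triglyceride breakdown and the lipid droplet, the partners of Pnpla2, 0 passed and the median was 0.057. Plin2, which coats lipid droplets, read 9.66, 9.66 and 9.54 in WT and 10.33, 9.80 and 9.76 in TG, a difference of 0.35 ± 0.18 (SE) with all TG arrays above all WT arrays. The monoglyceride lipase gene Mgll differed by -0.44 ± 0.34 (SE). Of 16 genes of lysosomal lipid handling, 0 passed and the median was -0.018. Among them the cholesterol carrier gene Npc2 differed by 0.24 ± 0.14 (SE) and the acid sphingomyelinase gene Smpd1 by -0.29 ± 0.17 (SE).

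Of 9 upstream regulators of cytosolic phospholipase A2, 0 passed and the median was 0.042. Anxa5, encoding a calcium-dependent phospholipid-binding annexin, read 9.99, 10.31 and 10.29 in WT and 10.49, 10.69 and 10.45 in TG, a difference of 0.35 ± 0.15 (SE) without overlap. Mapk14, encoding the p38-alpha kinase, differed by -0.25 ± 0.23 (SE). Of 14 genes that return fatty acids to phospholipids, activate arachidonate or carry PAF signals, 0 passed and the median was 0.0027. The acyltransferase genes Lpgat1 and Mboat1 differed by 0.50 ± 0.34 and -0.32 ± 0.20 (SE).

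Of 18 enzymes that use arachidonate or related fatty acids, 0 passed, 12 lay below 0 and the median was -0.065. Ptges2, a prostaglandin E synthase gene, read 7.85, 7.78 and 7.42 in WT and 7.87, 8.04 and 8.49 in TG, a difference of 0.45 ± 0.21 (SE) without overlap. The epidermal lipoxygenase gene Aloxe3, which serves the water barrier, differed by -0.87 ± 0.48 (SE). It read 8.13 on WT array 3 and 7.08 on TG array 3, the lowest of each genotype, as Pla2g4f did.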

How the data were processed

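Expression in cells sorted as hair follicle stem cells was measured on 6 arrays, 3 WT and 3 TG, grouped and numbered by the sample labels. The authors deposited log2 values, 1 per feature and array, of 41345 features. Transcriptome Analysis Console and Affymetrix Expression Console 1.4.1 are the tools listed in the submitters' processing notes, without settings. How values were summarised and scaled, and the genome build, were not given in the sources used here. The log base was read from the values (2.85 to 14.4). Platform annotation gave 1 symbol to 23521 features, several to 1814 and none to 16010. All 10 one-symbol features of the listed genes matched a RefSeq gene by Entrez ID, with 0 changed symbols.

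TG was compared with WT over 22180 genes with limma 3.58.1 in R 4.3.3 (lmFit, eBayes, two-sided), adjusted by Benjamini-Hochberg over all genes, with a threshold of 0.05. The fit was also run on simulated data with independent noise on each array and planted changes larger than any difference of the listed genes. That run held no shifts shared between arrays, so it does not cover small differences in data like these. Genes and lists were chosen with earlier results of these data known. The naming rule took every listed gene, the smallest p per list and direction, the sort markers and Pla2g2a, and the 3 genes most like each of the 3 listed genes of widest range.

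Deviations from the genotype means correlated between arrays of the same number at 0.20, 0.67 and 0.74, above the limit of 0.1 for pairing, so the number was fitted as a block beside the results. The labels state no shared litter or day, and WT array 1 correlated more with TG array 2 (0.50). Alternatives left out arrays or changed normalization, filter, feature, prior, weights or centring.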

Additional observations from a re-analysis of the deposited data

How the results depend on the processing

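Leaving out each array, or both numbered 3, leaves 2 arrays in a group, with the spread pooled by limma. Under every alternative run, 0 of the 9 phospholipase genes passed the adjusted threshold. The count of genes past it, and of secreted phospholipase A2 genes past it, ranged from 0 to 1 when arrays were left out, with 0 without TG array 1 and without both arrays numbered 3, and was 1 otherwise. Genes of the 9 at an unadjusted p under 0.05 numbered 0 on all arrays and 0 to 1 when arrays were left out. The single genes were Pnpla6 without WT array 2 and Plaat3 without WT array 3 or both arrays numbered 3. With array weights there were 2 (Pla2g7 and Plaat3), and with the replicate block 3. The weights of arrays 1, 2 and 3 were 1.31, 1.95 and 0.292 in WT and 4.23, 0.957 and 0.332 in TG. TG array 1, which counted most, held the highest Pla2g7 and the lowest Plaat3 value. The block left the adjusted calls as they were, but raised the unadjusted ones to 16 of 111 related genes and 8.45% of all genes.

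Of 125 differences of the 9 genes under alternatives, 114 kept their direction and 11 reversed. The block, the prior and the filter cannot change a difference, and feature averaging changes only that of Pla2g15. The count of kept directions therefore overstates how stable they were. All reversals came from leaving arrays out, apart from Pla2g15 with array weights. When arrays were left out, the difference ranged from -0.332 to 0.183 for Pla2g15, from -0.366 to 0.0612 for Pla2g4a, from -0.0349 to 0.676 for Pla2g4e, from -1.45 to 0.162 for Pla2g4f, from -0.13 to 0.208 for Pla2g6 and from -0.07 to 0.259 for Pnpla2. With array weights Pla2g15 was at 0.297. The cause was not tested. Pla2g7 has no value under the filter on genes at or above the median level, where it lies below. Quantile normalization and centring reversed none of the 9. The number of arrays limits the precision, and low values can understate a difference.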
